A study of Mus musculus with 8 samples.

Results

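Aminoacyl-tRNA synthetases are the enzymes that attach each amino acid to its tRNA. Their mRNAs were followed in bone marrow-derived macrophages (BMDMs), and 35 synthetase genes were found by their symbols among the 55359 genes listed. Of these, 19 encode cytosolic and 16 mitochondrial enzymes. The symbols were matched to the Ensembl identifiers through GENCODE annotation of GRCm39, and all 35 passed the filter on low values (a mean of at least 10 normalized counts over the samples), as did 16309 genes in all.

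BMDMs of adult C57BL/6 wildtype mice, of both sexes, were differentiated with M-CSF and GM-CSF, and every sample was selected for CD45+ cells before RNA isolation. Ctrl received neither treatment, LPS received murine IFNγ (100 U/mL) together with LPS (100 ng/mL) for 6 h, Eff was kept for 16 h with 5 apoptotic NIH-3T3 CA fibroblasts per macrophage, and LPSEff received the fibroblasts first and then, after washing, the same LPS and IFNγ for 6 h. The fibroblasts carry an activatable caspase-8 and were killed with 10 nM dimerizer, which stayed in the co-culture. Each group has 2 samples, numbered 1 and 2, and no source states whether these came from separate cultures or animals, so that all p-values measure only the spread between these samples.

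Most amino acids have one synthetase gene for the cytosol and another, nuclear-encoded one for the mitochondrion, where it charges the tRNAs that translate the mitochondrial genome. Several cytosolic synthetases are held together in the multisynthetase complex. In macrophages the family is best known for WARS1, the tryptophanyl enzyme, which interferons induce and which can also be secreted.

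Depth was read back from the values, all of which were whole multiples of what 1 read is worth in their sample. Recovered reads ranged from 3481288 (Ctrl 1) to 12020918 (Ctrl 2), so that 3 reads correspond to between 1.73 and 5.71 normalized counts, a floor that covers counting error only. The lowest read count of any member in any sample was 16, for Pars2. All 6 genes used to check stimulation (Nos2, Cxcl9, Il6, Cxcl10, Gbp2 and Irf1) were higher after stimulation in naïve as well as efferocytic cells (called by limma). All 10 macrophage markers were detected. Of these, 3 rose and 0 fell in LPS vs Ctrl and 4 rose and 0 fell in LPSEff vs Eff. Of the dendritic cell markers, 3 of 4 could be tested and Ccr7 rose with LPS/IFNγ in both. Of the neutrophil markers, 3 of 5 could be tested, and S100a8 rose in both LPS and Eff against Ctrl. In bulk RNA, fewer cells of a type and less RNA per cell cannot be told apart.

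Promoter windows are shown for the members at both ends of the response, and for called members whose window holds a motif that was searched for. Each window is GRCm39 sequence from 250 bases before to 50 bases after the start of the canonical GENCODE transcript, read 5′ to 3′ on the strand of the gene, and capitals mark a motif match on either strand. Wars1 (ENSMUSG00000021266, minus strand, window chr12:108860051-108860350) had the largest called rise. Farsb (ENSMUSG00000026245, minus strand, chr1:78465485-78465784) and Mars2 (ENSMUSG00000046994, plus strand, chr1:55276086-55276385) had the largest called falls among the cytosolic and the mitochondrial enzymes. Iars1 (ENSMUSG00000037851, plus strand, chr13:49835326-49835625), Tars1 (ENSMUSG00000022241, minus strand, chr15:11399702-11400001) and Nars2 (ENSMUSG00000018995, plus strand, chr7:96600439-96600738) were called and hold a match.
Wars1: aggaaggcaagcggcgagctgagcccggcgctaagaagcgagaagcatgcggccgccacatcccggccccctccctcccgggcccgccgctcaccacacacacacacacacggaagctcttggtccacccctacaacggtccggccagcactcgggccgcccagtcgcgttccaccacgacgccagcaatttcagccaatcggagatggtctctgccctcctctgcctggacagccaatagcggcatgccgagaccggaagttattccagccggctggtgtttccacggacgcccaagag
Farsb: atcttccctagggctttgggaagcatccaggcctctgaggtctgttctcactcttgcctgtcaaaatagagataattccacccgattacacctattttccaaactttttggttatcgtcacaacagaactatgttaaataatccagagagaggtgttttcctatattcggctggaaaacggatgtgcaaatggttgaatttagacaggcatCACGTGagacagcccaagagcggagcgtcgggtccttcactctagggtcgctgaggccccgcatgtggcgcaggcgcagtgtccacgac
Mars2: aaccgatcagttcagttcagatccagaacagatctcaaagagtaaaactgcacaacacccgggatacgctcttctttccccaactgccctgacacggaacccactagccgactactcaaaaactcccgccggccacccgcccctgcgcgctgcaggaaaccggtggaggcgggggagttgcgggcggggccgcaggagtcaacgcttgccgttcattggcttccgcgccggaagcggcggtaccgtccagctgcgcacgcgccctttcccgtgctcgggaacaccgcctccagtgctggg
Iars1: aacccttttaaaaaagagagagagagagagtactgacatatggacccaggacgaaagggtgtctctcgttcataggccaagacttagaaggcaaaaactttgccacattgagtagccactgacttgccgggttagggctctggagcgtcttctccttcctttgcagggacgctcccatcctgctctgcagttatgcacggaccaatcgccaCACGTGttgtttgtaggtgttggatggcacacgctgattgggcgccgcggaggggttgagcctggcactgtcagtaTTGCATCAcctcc
Tars1: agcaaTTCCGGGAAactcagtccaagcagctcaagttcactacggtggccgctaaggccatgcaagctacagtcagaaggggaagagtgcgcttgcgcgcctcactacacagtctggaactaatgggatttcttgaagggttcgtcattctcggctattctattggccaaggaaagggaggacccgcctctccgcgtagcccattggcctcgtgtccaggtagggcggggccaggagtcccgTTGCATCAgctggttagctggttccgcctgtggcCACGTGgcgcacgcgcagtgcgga
Nars2: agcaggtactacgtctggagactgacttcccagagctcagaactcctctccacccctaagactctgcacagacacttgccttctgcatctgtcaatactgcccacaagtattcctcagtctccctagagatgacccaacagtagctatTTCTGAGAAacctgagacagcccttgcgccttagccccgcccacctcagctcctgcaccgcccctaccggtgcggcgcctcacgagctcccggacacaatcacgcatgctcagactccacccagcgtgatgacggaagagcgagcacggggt
The window of Wars1 holds no match to any of the 4 motifs searched, nor does that of Mars2. Farsb, Iars1 and Tars1 each carry the E-box CACGTG, which is in 10% of the 12498 such windows of tested genes. Iars1 and Tars1 also carry the amino acid response element TGATGNAA, here on the other strand as TTGCATCA, which is in 2.39% of these windows. Tars1 and Nars2 carry the gamma-activated sequence TTCNNNGAA, found in 7.66%. Over all 35 members, 8 windows hold the gamma-activated sequence, 3 the interferon-stimulated response element (3.72% of the windows of tested genes), 4 the E-box and 5 the amino acid response element. The 3 members with the interferon-stimulated response element were Rars1, Vars1 and Wars2, and the 5 with the amino acid response element were Aars1, Cars1, Gars1, Iars1 and Tars1. No 2 of the matches printed overlap. A match describes these letters and is not a binding site.

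To see how abundant the members are, levels were compared per kilobase of canonical transcript. In Ctrl, the median was 194.8 normalized counts per kilobase for the cytosolic enzymes. It was 27.04 for the mitochondrial ones without Lars2, which is treated apart because its values follow those of an rRNA entry. The highest cytosolic level in Ctrl was that of Nars1, the asparaginyl enzyme, at 541.7 per kilobase. It was followed by Rars1 at 379.9, Gars1 at 353.6, Qars1 at 353.4, Hars1 at 342.8 and Aars1 at 338.6, and the ranges of the samples of these 5 neighbours overlapped except for those of Rars1 and Aars1. Their order depends on the length used. With all exons, Hars1 (272.6) and Aars1 (178.9) lay above Qars1 (149.4), Rars1 (137.0) and Gars1 (104.0). Cars1 was the lowest cytosolic member at 50.25 per kilobase, below the mitochondrial Iars2 (111.0), Tars2 (97.48), Rars2 (59.96) and Hars2 (58.15), although the range of Hars2 reached down to 44.52. Per kilobase of all exons, Cars1 lay above Rars2 instead (21.84 against 12.39). The lowest of all was Wars2, the mitochondrial tryptophanyl enzyme, at 7.92 per kilobase. With LPS/IFNγ, the mitochondrial median without Lars2 was 15.0 in LPS and 15.88 in LPSEff against 26.66 in Eff, and the cytosolic median was 175.0 in LPS, 194.2 in Eff and 198.3 in LPSEff.

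**Figure D1:**
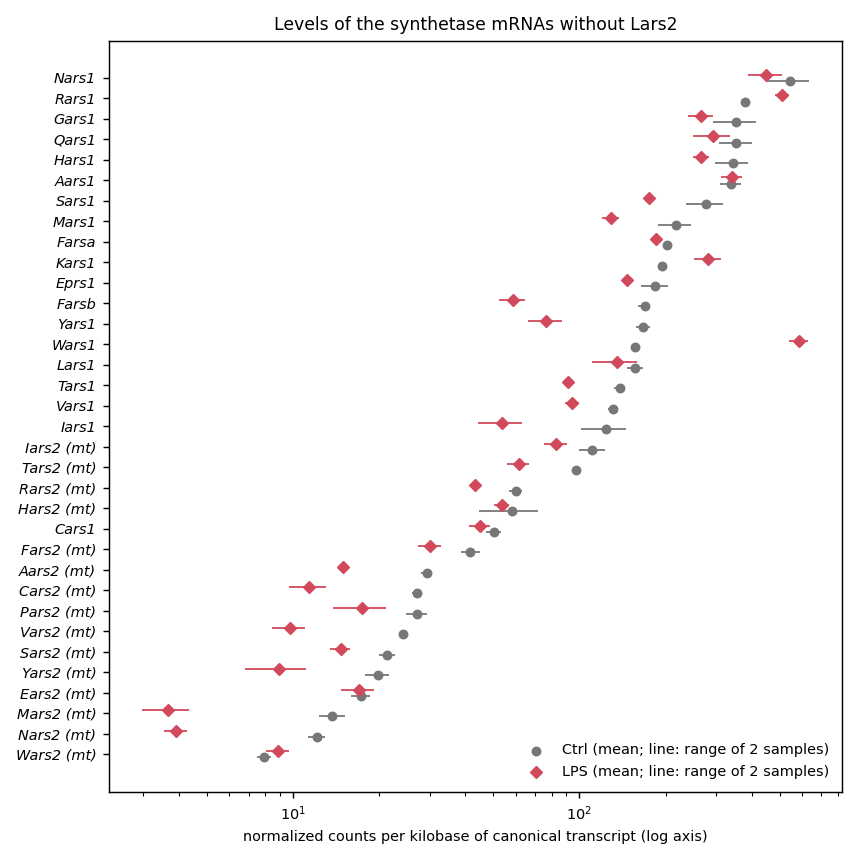
Levels of 34 synthetase mRNAs (all but Lars2) in normalized counts per kilobase of canonical transcript on a log axis, with the mean of the 2 Ctrl samples as circles, the mean of the 2 LPS samples as diamonds and lines for the range of both samples; mt marks mitochondrial enzymes. Wars1 moved from 156.7 per kilobase in Ctrl to 582.6 in LPS, and most mitochondrial members lay to the left of their Ctrl level.

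The first comparison asks what LPS/IFNγ does to naïve macrophages. Of the 35 members, 1 rose and 13 fell in LPS vs Ctrl, and 21 did not pass the test (limma, Benjamini-Hochberg adjusted p under 0.05 over all genes tested). Wars1 was the member that rose, 3.70-fold. The 13 that fell were the cytosolic Farsb, Iars1, Yars1, Mars1, Sars1 and Tars1 and the mitochondrial Mars2, Nars2, Vars2, Cars2, Yars2, Aars2 and Tars2. Over all tested genes, 24.0% were called, 12.4% higher and 11.6% lower, against 40.0% of the members. The median log2 fold change was -0.32 for the 19 cytosolic and -0.59 for the 16 mitochondrial members, beside -0.01 for all tested genes. Both LPS samples lay below both Ctrl samples for 23 members and above them for 3, compared with 30.9% and 28.4% of all tested genes.

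**Figure D2:**
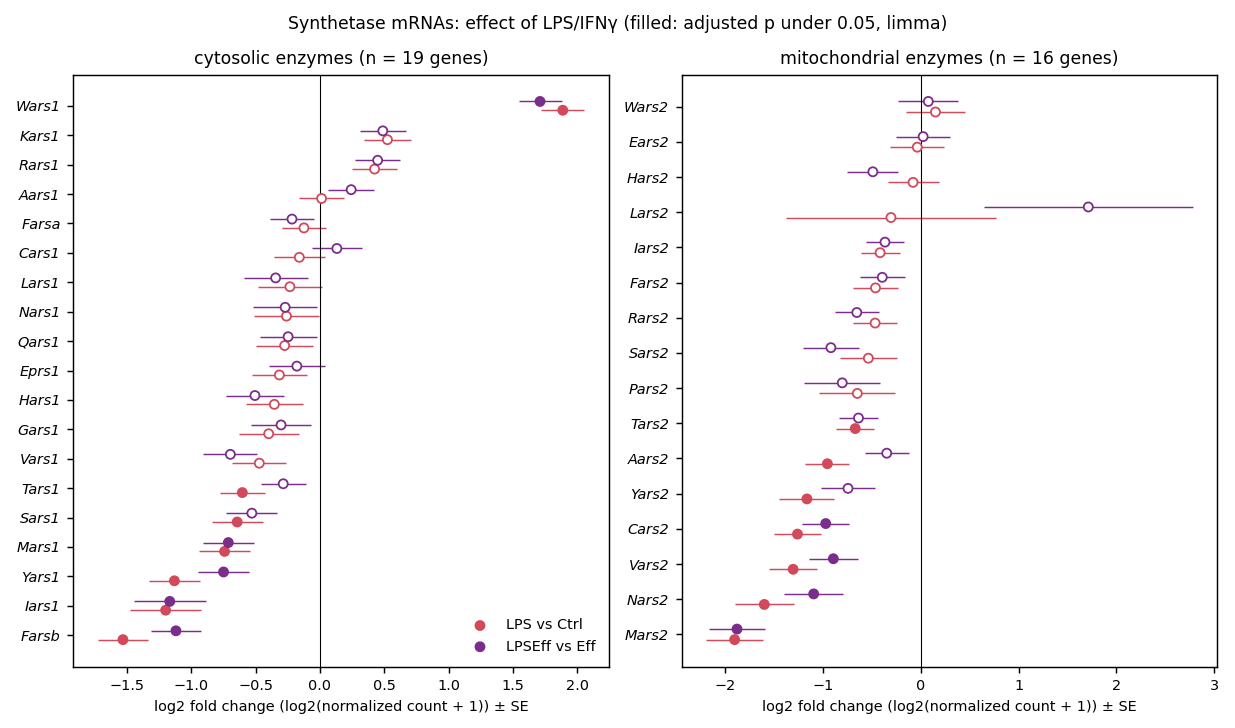
Log2 fold changes on the scale of log2(normalized count + 1) with their standard errors for LPS vs Ctrl and LPSEff vs Eff, for 19 cytosolic and 16 mitochondrial synthetase genes ordered by LPS vs Ctrl; filled points passed an adjusted p of 0.05 in limma. Wars1 stands alone at the upper end of the cytosolic panel, and all filled points of the mitochondrial panel lie below 0.

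These counts depend on how the spread and the scale are set. Leaving out any one Ctrl or LPS sample lowered the number of members called in LPS vs Ctrl, and also the share of all tested genes called. The cytosolic median was -0.508 without Ctrl 1, -0.149 without Ctrl 2, -0.254 without LPS 1 and -0.489 without LPS 2. The mitochondrial median was -0.569, -0.696, -0.8 and -0.572 in the same order. Stimulated samples had larger totals of normalized counts, and scaling all samples to equal totals moved the median of all tested genes to -0.405 in LPS vs Ctrl and to -0.435 in LPSEff vs Eff. On that scale, 1 member rose and 25 fell in LPS vs Ctrl and 1 rose and 26 fell in LPSEff vs Eff, where 35.2% and 34.2% of all tested genes were called.

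Among the cytosolic enzymes, Wars1 had 430.3 and 456.9 normalized counts in Ctrl against 1522 and 1776 in LPS, and 421.5 and 427.7 in Eff against 1428 and 1358 in LPSEff. Every stimulated sample was above every unstimulated one, without overlap. The log2 fold change was 1.89 ± 0.17 (SE, adjusted p = 0.000224, limma) in LPS vs Ctrl and 1.71 ± 0.17 (adjusted p = 0.000336, limma) in LPSEff vs Eff. Wars1 was called in each of the 17 alternatives tried. Wars1 made up 3.32% and 2.90% of the summed counts of the cytosolic members in Ctrl, and 12.3% and 12.9% in LPS. In LPSEff it made up 11.0% and 9.22%. In the order of levels per kilobase over all 35 members, Wars1 stood at rank 15 in Ctrl and at rank 2 in LPS, behind Lars2. The mitochondrial tryptophanyl gene Wars2 had 36.18 and 40.48 normalized counts in Ctrl and 38.8 and 46.71 in LPS, which overlap.

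Farsb encodes the beta subunit of the cytosolic phenylalanyl enzyme, which works as a tetramer with the alpha subunit encoded by Farsa. Farsb had 354.2 and 389.8 normalized counts in Ctrl and 418.0 and 414.3 in Eff without stimulation, and with it 115.1 and 142.2 in LPS and 179.7 and 203.1 in LPSEff. It fell in both states, and the stimulated samples lay below the unstimulated ones without overlap, with log2 fold changes of -1.53 ± 0.20 (SE, adjusted p = 0.00123, limma; 2.89-fold lower) in naïve and -1.12 ± 0.20 (adjusted p = 0.00599, limma) in efferocytic cells. Farsa, the partner subunit, had 359.9 and 381.1 normalized counts in Ctrl and 336.3 and 343.2 in LPS. Its log2 fold change was -0.12 and did not pass the test (adjusted p = 0.659, limma). Whether the subunits differ in their response was not tested.

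Iars1 and Mars1, the isoleucyl and methionyl enzymes, belong to the multisynthetase complex and were its 2 called members of the 7 measured. Iars1 had 447.5 and 646.0 normalized counts in Ctrl against 195.3 and 279.3 in LPS, and 584.5 and 593.5 in Eff against 217.7 and 314.7 in LPSEff. All stimulated samples were lower than all unstimulated ones, and the log2 fold changes were -1.20 ± 0.28 (SE, adjusted p = 0.0166, limma) and -1.17 ± 0.28 (adjusted p = 0.0209, limma). Mars1 (GRCm39 chr10:127128344-127147776) had 554.1 and 720.6 normalized counts in Ctrl and 539.8 and 602.0 in Eff without stimulation, and with it 351.8 and 405.2 in LPS and 343.6 and 351.5 in LPSEff. Its groups did not overlap either, with log2 fold changes of -0.74 ± 0.20 (SE, adjusted p = 0.0282, limma) and -0.71 ± 0.20 (adjusted p = 0.0376, limma). The LPS vs Ctrl calls of Iars1 and Mars1 were lost without Ctrl 2 (log2 fold changes -0.935 and -0.552) and without LPS 1 (-0.943 and -0.64). Their LPSEff vs Eff calls held in 14 and 12 of the 17 alternatives.

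The other 5 measured members of the complex, Eprs1, Kars1, Lars1, Qars1 and Rars1, did not pass the test. Kars1, which encodes the lysyl enzyme of both compartments, had 460.8 and 468.4 normalized counts in Ctrl and 598.8 and 747.4 in LPS. Rars1, the arginyl enzyme, had 788.3 and 826.4 in Ctrl and 1027 and 1143 in LPS. Both were higher in every stimulated sample than in its unstimulated counterparts, with log2 fold changes of 0.52 (adjusted p = 0.0701, limma) and 0.42 (adjusted p = 0.122, limma). Under edgeR, Kars1 passed (adjusted p = 0.0346). With the replicate number as a block, both genes passed in LPS vs Ctrl (adjusted p = 0.0117 and 0.0239, limma). Under equal totals the log2 fold changes of Kars1 and Rars1 were 0.12 and 0.02 in LPS vs Ctrl, and 0.04 and -0.001 in LPSEff vs Eff, so that the sign of Rars1 turned in the latter.

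Outside the complex, Yars1, the tyrosyl enzyme (GRCm39 chr4:129082752-129114906), had 514.1 and 458.6 normalized counts in Ctrl against 192.7 and 253.9 in LPS, and 467.9 and 465.1 in Eff against 264.4 and 290.6 in LPSEff. It fell without overlap in both states, by log2 fold changes of -1.13 ± 0.20 (SE, adjusted p = 0.00519, limma) and -0.75 ± 0.20 (adjusted p = 0.0329, limma). Sars1, the seryl enzyme, which also loads serine on the selenocysteine tRNA (chr3:108332181-108352701), had 858.8 and 1157 normalized counts in Ctrl and 1005 and 1080 in Eff without stimulation, and with it 658.3 and 618.4 in LPS and 676.1 and 770.4 in LPSEff. Its groups did not overlap, but it passed the test in LPS vs Ctrl and not in LPSEff vs Eff (log2 fold change -0.64, adjusted p = 0.0471, limma, against -0.53 and an adjusted p of 0.101, limma). The threonyl Tars1 averaged 555.4 ± 34.1 normalized counts in Ctrl and 365.0 ± 2.23 in LPS (SD, n = 2), and its log2 fold change was -0.60 (adjusted p = 0.0381, limma). The call of Tars1 was lost without any one of the 8 samples, and that of Sars1 without any one but Ctrl 1. Both calls were also lost without a filter and with only the groups compared. With DESeq2, Tars1 did not pass either (adjusted p = 0.0564, DESeq2). The calls of Tars1 and Sars1 held in 6 and 8 of the 17 alternatives.

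The 2 deepest falls in LPS vs Ctrl were those of the mitochondrial Mars2 and Nars2. Their LPS values rest on few reads, 26 and 48 for Mars2 and 19 and 29 for Nars2. Mars2, the methionyl enzyme that charges the initiator tRNA of mitochondrial translation, had 171.4 and 138.8 normalized counts in Ctrl against 33.63 and 48.74 in LPS, and 210.3 and 150.3 in Eff against 48.29 and 46.96 in LPSEff. The stimulated samples were below the unstimulated ones without overlap. The log2 fold changes were -1.90 ± 0.29 (SE, adjusted p = 0.00269, limma; 3.74-fold lower) and -1.88 ± 0.29 (adjusted p = 0.00335, limma; 3.68-fold lower). The cytosolic methionyl gene Mars1 had log2 fold changes of -0.74 and -0.71 in the same contrasts.

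Nars2, the asparaginyl enzyme, had 89.5 and 78.07 normalized counts in Ctrl and 94.64 and 71.28 in Eff without stimulation, and with it 24.57 and 29.45 in LPS and 43.54 and 33.0 in LPSEff. It was 3.03-fold lower in LPS than in Ctrl (log2 fold change -1.60 ± 0.30 SE, adjusted p = 0.00685, limma) and 2.14-fold lower in LPSEff than in Eff (adjusted p = 0.0372, limma). No stimulated sample reached an unstimulated one. The LPS vs Ctrl call of Nars2 was lost without Ctrl 1 (log2 fold change -1.503), and its LPSEff vs Eff call held in 8 of the 17 alternatives. Vars2, the valyl enzyme (GRCm39 chr17:35966526-35978510), had 106.6 and 108.7 normalized counts in Ctrl against 49.15 and 37.57 in LPS, and 115.7 and 108.0 in Eff against 60.96 and 58.38 in LPSEff. Its log2 fold changes were -1.30 ± 0.25 (SE, adjusted p = 0.00715, limma) and -0.89 ± 0.25 (adjusted p = 0.0385, limma). Cars2, the cysteinyl enzyme (chr8:11558417-11600875), had 196.1 and 213.4 normalized counts in Ctrl and 200.7 and 165.1 in Eff without stimulation, and with it 98.3 and 73.12 in LPS and 97.38 and 87.57 in LPSEff, and fell by 1.26 (adjusted p = 0.00694, limma) and 0.97 (adjusted p = 0.0236, limma) on the log2 scale. Vars2 and Cars2 showed the same separation, with both stimulated samples below both unstimulated ones.

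Group means of the remaining called mitochondrial members moved the same way. Yars2, the tyrosyl enzyme, averaged 133.1 ± 18.6 normalized counts in Ctrl and 60.36 ± 20.7 in LPS (SD, n = 2). Aars2, the alanyl enzyme, averaged 131.7 ± 8.46 and 67.42 ± 3.43, and Tars2, the threonyl enzyme, 245.9 ± 11.2 and 154.8 ± 19.5 (SD, n = 2). Their adjusted p-values in limma were 0.0196, 0.0175 and 0.0404. Tars2 lost its call without any one of the 8 samples, with log2 fold changes between -0.798 and -0.542. It also lost the call without a filter, with only the groups compared and with DESeq2 (adjusted p = 0.0881, DESeq2). The call of Tars2 held in 6 of the 17 alternatives. Yars2 and Aars2 lost theirs without Ctrl 1, Ctrl 2 or LPS 2, and with only the groups compared. The summed counts of the 15 mitochondrial members other than Lars2 were 2190 and 2462 in Ctrl and 2482 and 2536 in Eff without stimulation, and with it 1449 and 1496 in LPS and 1613 and 1715 in LPSEff.

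**Figure D3:**
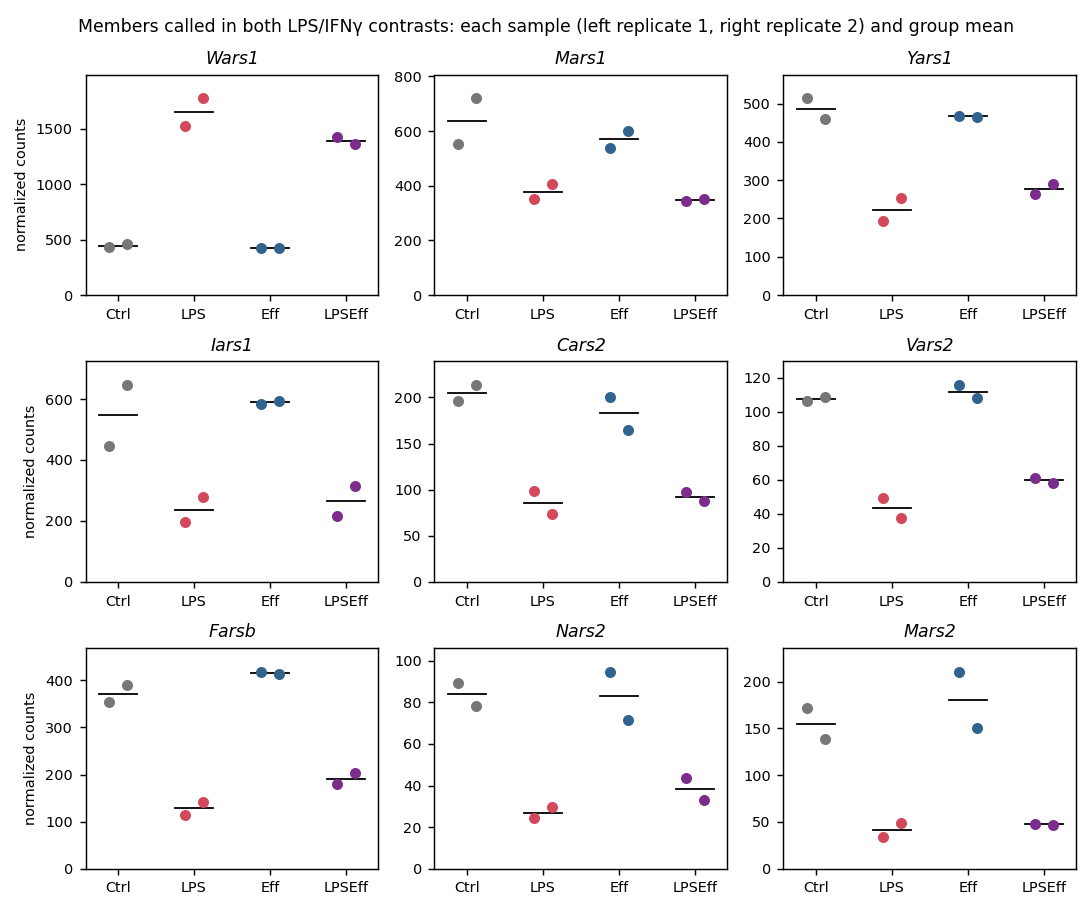
Normalized counts, on linear axes from 0, of the 9 members called in both LPS vs Ctrl and LPSEff vs Eff, with replicate 1 on the left and replicate 2 on the right of each group and a line at the mean of the 2 samples. The LPS and LPSEff points lie above the Ctrl and Eff points for Wars1 and below them for the other 8 genes.

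The enzymes for the same amino acid did not move alike in every case, and none of these differences was tested. For alanine, asparagine, cysteine and valine, the mitochondrial gene was called in LPS vs Ctrl and the cytosolic gene was not. The mitochondrial values were -0.96 (Aars2), -1.60 (Nars2), -1.26 (Cars2) and -1.305 (Vars2). The cytosolic ones were 0.01 (Aars1), -0.26 (Nars1), -0.16 (Cars1) and -0.47 (Vars1). For isoleucine the cytosolic Iars1 was called at -1.20 and the mitochondrial Iars2, at -0.42, was not. Likewise only the cytosolic gene was called for serine (Sars1 -0.64, Sars2 -0.54) and tryptophan (Wars1 1.89, Wars2 0.15). For phenylalanine, Farsb was called at -1.53, and Farsa (-0.12) and the mitochondrial Fars2 (-0.46) were not. For tyrosine, threonine and methionine both genes were called, and for arginine, histidine and leucine neither was. Counts of Aars1 are uncertain, since 1326 bases of its exons are shared with Exosc6 on the same strand. Several called members share exon sequence with a gene on the opposite strand. Among them are Cars2 with Naxd (4080 bases), Mars2 with Boll (3827), Yars2 with Dnm1l (3594) and Mars1 with Ddit3 (3576). Yars1 shares 1536 bases with Nhsl3, and Farsb shares 1348 with Sgpp2.

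The members that did not pass in LPS vs Ctrl spanned log2 fold changes from -0.65 (Pars2, prolyl) to 0.52 (Kars1). Gars1, which encodes the glycyl enzyme of both compartments, had -0.40. Eprs1, which joins the glutamyl and prolyl activities in one protein, had -0.32. Hars1 (histidyl) had -0.35, Vars1 (valyl) -0.47, Qars1 (glutaminyl) -0.27 and Lars1 (leucyl) -0.23. Of the mitochondrial enzymes, Sars2 (seryl) had -0.54, Rars2 (arginyl) -0.47, Fars2 (phenylalanyl) -0.46, Hars2 (histidyl) -0.08 and Ears2 (glutamyl) -0.04. Pars2 and Sars2 were among the members with the fewest reads, as were the called Nars2 and Mars2.

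The second comparison asks for the same response in macrophages that had first taken up apoptotic cells. In LPSEff vs Eff, 1 member rose and 8 fell, against 19.7% of all tested genes called (10.7% higher and 8.95% lower). All 9 were also called in LPS vs Ctrl, with the same sign. These contrasts compare different samples, but both take their spread from the fit of all 8 samples, so the calls are not independent. Cytosolic members called were Wars1, Farsb, Iars1, Mars1 and Yars1, and mitochondrial ones Mars2, Nars2, Vars2 and Cars2. The medians were -0.29 for the cytosolic and -0.65 for the mitochondrial members, beside 0.005 for all tested genes, and 32 of the 35 members had the same sign in both contrasts. The exceptions were Cars1, Ears2 and Lars2, of which none was called in either. Both LPSEff samples lay below both Eff samples for 24 members and above them for 5, compared with 30.4% and 29.5% of all tested genes. Leaving out any one Eff or LPSEff sample lowered the number of members called, and also the share of all tested genes called. The cytosolic median was -0.37 without Eff 1, -0.24 without Eff 2, -0.167 without LPSEff 1 and -0.466 without LPSEff 2. The mitochondrial median was -0.696, -0.573, -0.573 and -0.625 in the same order. Wars1, Farsb and Mars2 passed in all 17 alternatives, whereas the calls of Nars2 and Vars2 held in 8 of 17 and were lost with DESeq2, and that of Yars1 held in 10. The calls of Iars1, Mars1 and Cars2 held in 14, 12 and 12 of 17.

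Sars1, Tars1, Aars2, Tars2 and Yars2, which were called in LPS vs Ctrl, had log2 fold changes of -0.53, -0.29, -0.35, -0.64 and -0.74 in LPSEff vs Eff and did not pass there in limma, although Tars2 passed with edgeR. The difference between the responses of efferocytic and naïve cells, tested as an interaction in limma, was called for 0 of 35 members, with 0 at an unadjusted p under 0.05. It was called for 0 members with edgeR and DESeq2 as well. Of all tested genes, 0.0% were called and 1.91% had an unadjusted p under 0.05. The largest values were those of Lars2 (2.02), Aars2 (0.61, unadjusted p = 0.0911, limma) and Nars2 (0.51, unadjusted p = 0.27, limma).

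The remaining comparisons ask what apoptotic cells alone do, and what they change under LPS/IFNγ. In Eff vs Ctrl, 0 of 35 members were called by limma, 1 had an unadjusted p under 0.05, and edgeR and DESeq2 called 0 each. Of all tested genes, 0.251% were called and 6.13% had an unadjusted p under 0.05. Ears2, the mitochondrial glutamyl enzyme, was the member with the lowest p, with 59.03 and 68.82 normalized counts in Ctrl and 108.7 and 93.16 in Eff, a log2 fold change of 0.65 (adjusted p = 0.787, limma). Fars2, the mitochondrial phenylalanyl enzyme, had 81.88 and 95.42 in Ctrl and 126.2 and 127.0 in Eff, a log2 fold change of 0.51 (adjusted p = 0.839, limma). The Eff samples of both genes lay above the Ctrl samples. The cytosolic median was 0.04 and the mitochondrial one 0.09, beside -0.01 for all tested genes.

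In LPSEff vs LPS, 0 of 35 members were called by limma, 6 had an unadjusted p under 0.05, and edgeR and DESeq2 called 0 each, beside 0.773% of all tested genes called and 10.3% with an unadjusted p under 0.05. The 3 members with the largest values were mitochondrial. Yars2 had 75.02 and 45.7 normalized counts in LPS and 101.3 and 113.0 in LPSEff (log2 fold change 0.86 ± 0.28 SE, adjusted p = 0.31, limma). Aars2 had 69.84 and 64.99 in LPS and 106.9 and 118.0 in LPSEff (0.73 ± 0.22 SE, adjusted p = 0.265, limma). Ears2 had 54.32 and 71.09 in LPS and 88.67 and 118.0 in LPSEff (0.71 ± 0.27 SE, adjusted p = 0.415, limma). For these 3 genes both LPSEff samples were above both LPS samples, which held for 15 members in all, with 3 below, against 19.3% and 17.0% of all tested genes. Wars1 had a log2 fold change of -0.24 (adjusted p = 0.717, limma). The cytosolic median was 0.12 and the mitochondrial one 0.18, beside -0.003 for all tested genes.

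**Figure D4:**
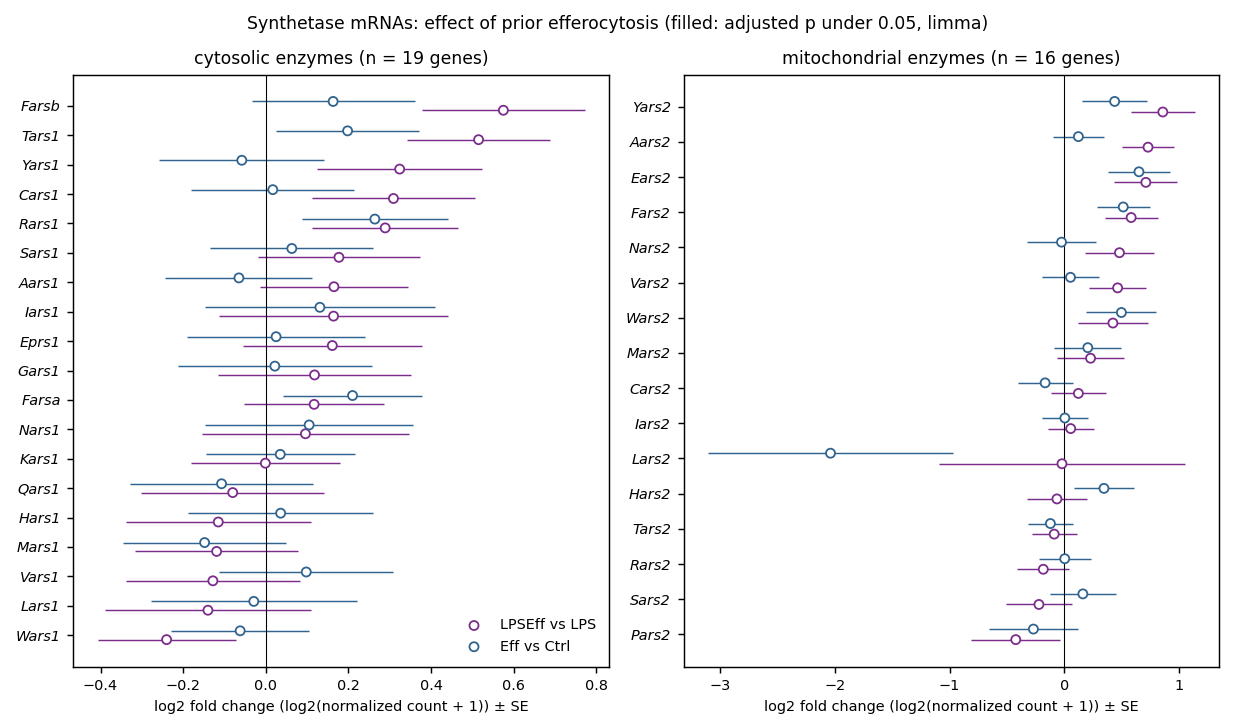
Log2 fold changes on the scale of log2(normalized count + 1) with their standard errors for LPSEff vs LPS and Eff vs Ctrl, for 19 cytosolic and 16 mitochondrial synthetase genes; open points did not pass an adjusted p of 0.05 in limma. No point is filled, and Yars2 at 0.86 and Aars2 at 0.73 are the highest values in LPSEff vs LPS.

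In sum, fibroblast markers were higher in both of these contrasts, and also in LPS vs Ctrl, where no fibroblasts were added. The summed counts of 12 fibroblast markers were 165.7 and 360.9 in Ctrl against 789.0 and 817.5 in LPS, and 1923 and 3505 in Eff against 5643 and 4834 in LPSEff. Of the 10 markers tested, 5 rose with apoptotic cells alone and 6 under stimulation (LPSEff vs LPS). In these contrasts 0.251% and 0.773% of all tested genes were called in either direction. In LPS vs Ctrl 2 markers rose and in LPSEff vs Eff 1 rose, where 12.4% and 10.7% of all tested genes rose. Col6a3 and Dcn were at 0 in Ctrl 1, Lum did not exceed 3.81 normalized counts in any sample, and Postn lay between 0.0 and 22.84. The part of fibroblast RNA in the synthetase values was not tested.

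Lars2, the mitochondrial leucyl enzyme (GRCm39 chr9:123195952-123291731), had the widest spread of the members. It had 28523 and 2079 normalized counts in Ctrl against 11047 and 3520 in LPS, and 2626 and 1336 in Eff against 7511 and 5026 in LPSEff. The Ctrl samples differed 13.7-fold, whereas the samples of a group differed by a median of 1.16-fold over the other members, with a highest value of 1.87 (Pars2 in LPSEff). The entry Rn18s-rs5, for 18S rRNA, had 223338 and 32493 normalized counts in Ctrl and 62488 and 33368 in Eff without stimulation, and with it 153242 and 70645 in LPS and 127669 and 98528 in LPSEff. The order of the 8 samples was the same for both genes, apart from Ctrl 2 and Eff 2, which were lowest in both and exchanged places. The log2 fold changes of Lars2 were -0.31 ± 1.07 (SE) in LPS vs Ctrl, 1.71 ± 1.07 in LPSEff vs Eff and -2.04 ± 1.07 in Eff vs Ctrl, and it was not called in any contrast. With only the groups compared, it passed in LPSEff vs Eff (adjusted p = 0.022, limma). The part of rRNA reads in the values of Lars2 was not tested.

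**Figure D5:**
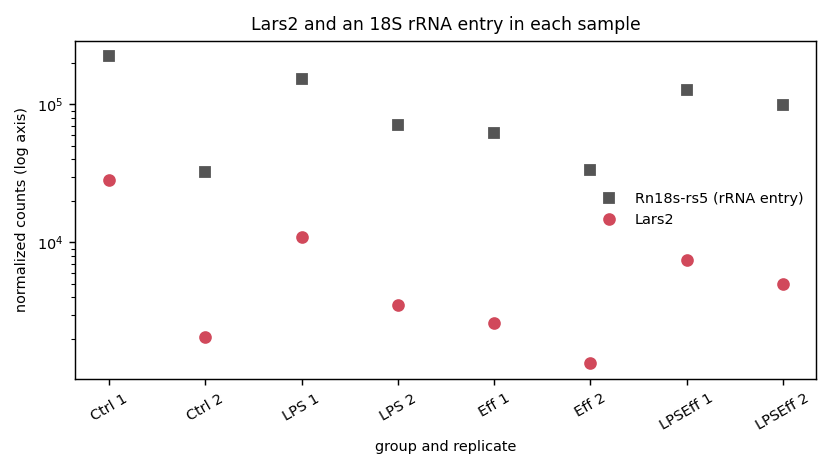
Normalized counts of Lars2 (circles) and of the 18S rRNA entry Rn18s-rs5 (squares) in each of the 8 samples on a log axis. Both are highest in Ctrl 1, at 28523 and 223338, and the other samples follow nearly the same order.

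Genes that act beside the synthetases were counted from lists written from general knowledge. Of 20 accessory and charging genes, which include scaffold proteins of the complex, further synthetases and editing factors, 0 rose and 7 fell in LPS vs Ctrl, and 0 rose and 3 fell in LPSEff vs Eff, where 11.6% and 8.95% of all tested genes fell. The largest were Tars3, a further threonyl synthetase (-2.13, adjusted p = 0.00379, limma), Aimp2, a scaffold of the multisynthetase complex (-1.39, adjusted p = 0.00898, limma), and Gatc, a subunit of the mitochondrial glutaminyl-tRNA amidotransferase (-1.17, adjusted p = 0.0167, limma). The median of the list was -0.85.

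Of the amino acid response genes linked to ATF4, a transcription factor induced when charged tRNA runs short, 23 of 24 were tested. In LPS vs Ctrl 3 rose and 4 fell, and in LPSEff vs Eff 4 rose and 3 fell, beside 24.0% and 19.7% of all tested genes called. The largest called values in LPS vs Ctrl were Ppp1r15a (1.93, adjusted p = 0.00132, limma), a phosphatase subunit that reverses eIF2α phosphorylation, Atf3, a stress-induced transcription factor (1.45, adjusted p = 0.0184, limma), and Eif2ak4, the kinase GCN2 that senses uncharged tRNA (-1.03, adjusted p = 0.00944, limma). Atf4 itself had 1302 and 1049 normalized counts in Ctrl and 1724 and 1219 in LPS, and Asns, the asparagine synthetase, had 116.2 and 171.2 in Ctrl and 232.8 and 135.1 in LPS. Neither passed the test (adjusted p = 0.378 and 0.528, limma).

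Of the amino acid transporters, 16 of 17 were tested, and 3 rose and 3 fell with the median at -0.33 in LPS vs Ctrl, while 4 rose and 5 fell in LPSEff vs Eff, beside the same 24.0% and 19.7%. The 3 largest were Slc7a11, the cystine importer (3.89, adjusted p = 0.000217, limma), Slc7a2, a cationic amino acid importer (3.58, adjusted p = 3.1e-05, limma), and Slc43a2, a transporter of large neutral amino acids (-1.85, adjusted p = 0.00302, limma). Of the enzymes that consume tryptophan or arginine, 10 of 11 were tested, and 5 rose and 0 fell in each of the LPS/IFNγ contrasts, where 12.4% and 10.7% of all tested genes rose. The largest were Nos2, the inducible nitric oxide synthase (9.60), Ido1, which opens the tryptophan ring (4.83), and Arg2, the mitochondrial arginase (3.06). Ido1 had 1.90 and 12.14 normalized counts in Ctrl and 64.67 and 467.1 in LPS, and the first of these is a single read. The efferocytosis contrasts called no gene of these 4 lists.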

How the data were processed

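The authors depleted rRNA from total RNA, clipped adapters (cutadapt), filtered out rRNA reads (Bowtie2), aligned the rest to mm39 (STAR) and counted with htseq-count (HTSeq) in its default mode, which counts by strand and drops reads shared by genes. The deposited signal is a normalized count per gene, that is, reads divided by a size factor for each sample. The versions of these tools and their annotation are not given in the sources used here. The study used DESeq2.

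Of 55359 identifiers, 54749 were named from GENCODE (release M39 for mouse, GRCm39). All values (100%) lay within 0.01 of a whole multiple of 1 read. Genes averaging 10 or more normalized counts (16309) were put on the scale of log2(normalized count + 1) and fitted with limma (trend option, version 3.58.1 in R 4.3.3) to the 4 group means, with 4 residual degrees of freedom and Benjamini-Hochberg adjustment within a contrast (called under 0.05). Fold changes are on this scale, which understates changes of low genes. With 2 samples against 2, the smallest p of an exact permutation test is 0.333.

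Members and lists were chosen with earlier results of these data known. Values are given for each sample of the 6 cytosolic and 4 mitochondrial called members with the largest changes, of the 3 largest members in the other contrasts and of Wars1, and by group means for other called members. Of each list, the 3 largest called genes are named. Pars2, Farsa, Wars2, Kars1, Rars1, Atf4, Asns and Rn18s-rs5 were added after their values were seen.

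Alternatives were pseudocounts of 0.5 and 5, no filter or a mean of at least 50, only the groups compared, a replicate block, equal totals, DESeq2 (version 1.42.0) and TMM-normalized edgeR (version 4.0.16) run on recovered reads, and leaving out each sample. Levels per kilobase of all exons were added after the data had been seen. The test was checked on simulated data, drawn with independent samples and the same relative spread beyond counting error for every gene. The real samples can depart from both, so the check does not measure the error rate of these calls.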

Additional observations from a re-analysis of the deposited data

How the results depend on the processing

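In LPS vs Ctrl, 14 members were called, and the count was 12 with DESeq2 (25.3% of all genes called), 15 with edgeR (24.5%), 10 without a filter (6.91%), 8 with only the groups compared (17.3%), 26 with equal totals (35.2%) and between 7 and 11 when a sample was left out. In LPSEff vs Eff, 9 were called, and the count was 8 with DESeq2 (22.4%), 12 with edgeR (21.5%), 4 without a filter (5.72%), 27 with equal totals (34.2%) and between 3 and 9 when a sample was left out. Equal totals moved the medians in LPS vs Ctrl to -0.72 (cytosolic) and -0.98 (mitochondrial), and in LPSEff vs Eff to -0.73 and -1.09. When a sample was left out, the cytosolic medians ranged from -0.508 to -0.149 in LPS vs Ctrl, from -0.466 to -0.167 in LPSEff vs Eff, from -0.123 to 0.182 in Eff vs Ctrl, from -0.026 to 0.245 in LPSEff vs LPS and from -0.134 to 0.238 in the interaction, and the mitochondrial ones from -0.800 to -0.569 in LPS vs Ctrl, from -0.696 to -0.573 in LPSEff vs Eff, from 0.048 to 0.140 in Eff vs Ctrl, from 0.167 to 0.313 in LPSEff vs LPS and from -0.073 to 0.172 in the interaction. Per kilobase of all exons, the medians in Ctrl were 85.96 (cytosolic) and 14.18 (mitochondrial, Lars2 included) in place of 194.8 and 27.07. No result of the members changed its direction while called, in any of the 17 alternatives. The cause of these changes was not tested. With a mean of at least 50, Pars2 and Wars2 were not tested. A left-out sample leaves its group with 1 sample, which is assumed to vary like the others.

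The replicate numbers were used as a block only as an alternative, since no source says that equal numbers share a preparation. Deviations of same-numbered samples from their group means correlated across genes with r between 0.404 and 0.595 over the 6 pairs of groups. With the replicate block, 18 members were called in LPS vs Ctrl (41.2% of all genes), 19 in LPSEff vs Eff (37.0%), 1 in LPSEff vs LPS (Tars1, adjusted p = 0.0484, limma), 0 in Eff vs Ctrl and 0 in the interaction, and of all tested genes 6717 in LPS vs Ctrl in place of 3910, 6033 in LPSEff vs Eff in place of 3213, 1137 in LPSEff vs LPS in place of 126 and 436 in Eff vs Ctrl in place of 41. In LPSEff vs Eff, the block added Sars1, Tars2, Yars2 and Lars2 to the called members, with adjusted p-values of 0.0176, 0.0106, 0.0373 and 0.0319 (limma), among others. The others included Kars1 and Rars1, which rose (adjusted p = 0.0183 and 0.0202, limma), and both were called as rises in LPS vs Ctrl as well.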
